A study of Drosophila melanogaster with 15 samples.

Results

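The odorant binding protein genes of Drosophila melanogaster were followed in RNA from filleted larvae. They were taken as every gene symbol of the deposited count tables that starts with Obp followed by a digit, which gave 45 genes of 15682 symbols. Odorant binding proteins are small, soluble, secreted proteins whose cysteines are joined in disulphide bridges around a pocket for hydrophobic ligands. In the fluid of olfactory and taste sensilla, support cells release them, and they are known for carrying odorants and pheromones towards receptors on neurons. Several family members are also known from tissues without chemosensory neurons, such as fat body, glia and epithelia. A further 7 genes that the current annotation places in the family stood in the tables under other symbols (Pbprp1 to Pbprp5, Os-E and lush). They were kept apart as a list of their own.

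RNA-seq was done on larval body wall preparations of 5 genotypes, each as 3 biological replicates, which gave 15 libraries. All animals carried the driver Mef2-Gal4, which is active in skeletal muscle and also in visceral muscle and some brain cells. Mef2>Deaf1RNAi expressed a hairpin against Deaf1, a DNA-binding transcription regulator, and was compared with Mef2>whiteRNAi, whose hairpin is directed against the eye pigment gene white. Mef2>Deaf1 carried a Deaf1 transgene and Mef2>Gsk3CA a transgene for a constitutively active Gsk3 kinase, and both were compared with Mef2>+, the driver crossed to w1118, so that these comparisons share 3 control libraries. The study asked what gain and loss of Deaf1, and active Gsk3, do to gene expression in muscle. A fillet keeps muscle together with epidermis and whatever fat body, nerve, gland or gut remains attached, so a level here is a level in the whole preparation, and fewer cells of a type and less RNA per cell cannot be told apart. In its statistical methods the study describes a biological replicate as data from a different larva, with larvae typically taken from several crosses per genotype. It does not say this of the RNA libraries in particular, and the larval stage of the sequenced fillets is not given in the sources used here. The p-values measure the spread between these libraries. Replicates were not equally alike, and in every genotype replicates 1 and 2 were the closest pair. The chi-square per gene between their counts, given library totals, was 5.51 in Mef2>+, beside 180 and 202 for the pairs with replicate 3. In Mef2>Gsk3CA it was 22.6, beside 287 and 360. The source of this likeness is not given, so the 3 libraries of a genotype may not be equally independent.

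The libraries held 16186361 to 32756446 counts on genes. Levels are given as CPM, read counts scaled to a common library total with TMM factors, and means as mean ± SD of 3 libraries. Deaf1 itself stood at 22.9 ± 1.23 CPM in Mef2>Deaf1RNAi against 41.8 ± 2.69 CPM in Mef2>whiteRNAi (log2 fold change −0.87, SE 0.10, adjusted p = 9.0e-04), and at 43.2 ± 3.92 CPM in Mef2>Deaf1 against 34.8 ± 2.73 CPM in Mef2>+ (log2 fold change 0.31, SE 0.10, adjusted p = 0.058). The Gsk3 gene sgg stood at 400.3 ± 109 CPM in Mef2>Gsk3CA and 369 ± 99.3 CPM in Mef2>+ (log2 fold change 0.12, adjusted p = 0.779), so those 3 are called the Gsk3CA-labelled libraries. The study itself reports higher mRNA of Deaf1 and of Gsk3 upon overexpression of each, and takes p under 0.05 as significant. These counts gave no call for either after adjustment. For Deaf1, every Mef2>Deaf1 library (40.6 to 47.7 CPM) lay above every Mef2>+ library (31.8 to 37.0 CPM). By edgeR that Deaf1 difference had an unadjusted p under 0.05. The sgg difference did not, and its libraries overlapped. The 11 skeletal muscle marker genes, all tested, summed to 63761 to 97446 CPM in Mef2>+, 18801 to 27635 in Mef2>Deaf1, 39941 to 55338 in the Gsk3CA-labelled libraries, 15987 to 43391 in Mef2>whiteRNAi and 62084 to 67784 in Mef2>Deaf1RNAi. Among genes of chemosensory neurons, Orco, the odorant co-receptor, had at most 4 counts in any library and the ionotropic co-receptor Ir8a at most 2, while Ir25a, a more widely used ionotropic co-receptor, had 10 to 47 counts (means per genotype of 0.843 to 1.52 CPM). All adjusted p-values come from the quasi-likelihood test of edgeR, adjusted by the Benjamini-Hochberg method over 10930 genes, with adjusted p under 0.05 as a call.

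Most of the family was at or near 0 in these fillets. No library held a single count on 5 of the 45 genes (Obp22a, Obp47a, Obp50b, Obp50c and Obp57d), and 14 more had counts but never over 3 in a library. More than 3 counts in at least 1 library were found for 26 genes, and in every library for 9. Of the genes with no count, Obp50b and Obp50c are annotated on the same 1648 exon bases, and all 1488 exon bases of Obp57d overlap Cpr57A on the same strand, so their reads may have been left out as ambiguous. For the other genes listed at 0, the deepest library allows up to 3 counts.

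A mean of at least 1 CPM in at least 1 genotype was reached by 13 genes. A setting of 0.5 CPM gave 16 genes and one of 2 CPM gave 10. The filter on low counts passed 14 of the 45, or 31.1%, where it passed 69.7% of all symbols. The 14 were Obp18a, Obp44a, Obp46a, Obp50d, Obp50e, Obp56a, Obp56b, Obp56d, Obp57e, Obp83ef, Obp83g, Obp99a, Obp99b and Obp99c. Of these, 8 lie on chromosome arm 2R, 5 on 3R and 1 on X, while the whole family has 29 genes on 2R, 9 on 3R, 5 on X and 1 each on 2L and 3L. The number in an Obp symbol is the cytological band, and genes of a band usually sit side by side as tandem copies. Band 56, with 9 genes, had 3 that passed, band 99 had 3 of 4, band 83 had 2 of 3, band 50 had 2 of 5 and band 57 had 1 of 5. None of the 3 genes of band 58 exceeded 3 counts in any library.

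Per kilobase of exon, Obp56d stood first, with a mean of 1025 RPKM (CPM divided by exon length in kilobases) over the 15 libraries, and Obp99b followed at 516. Obp44a (39.4), Obp83g (35.4), Obp99c (26.2), Obp56a (25.2) and Obp99a (17.0) formed a middle group on the same scale, in which the ranges over libraries overlapped between neighbours. Obp50d followed at 7.34, and Obp46a, Obp57e, Obp83ef, Obp18a, Obp50e and Obp56b were at 3.81 or less. Together Obp56d and Obp99b held 44.0 to 98.0% of the summed CPM of the 45 genes. That sum was 270.3 to 291 CPM in the Mef2>+ libraries, 494 to 732 in Mef2>Deaf1, 1277 to 1414 in the Gsk3CA-labelled libraries, 1813 to 2492 in Mef2>whiteRNAi and 2167 to 2880.3 in Mef2>Deaf1RNAi. The 2 control genotypes thus lay far apart, and none of these ranges over libraries overlapped except those of Mef2>whiteRNAi and Mef2>Deaf1RNAi.

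**Figure D1:**
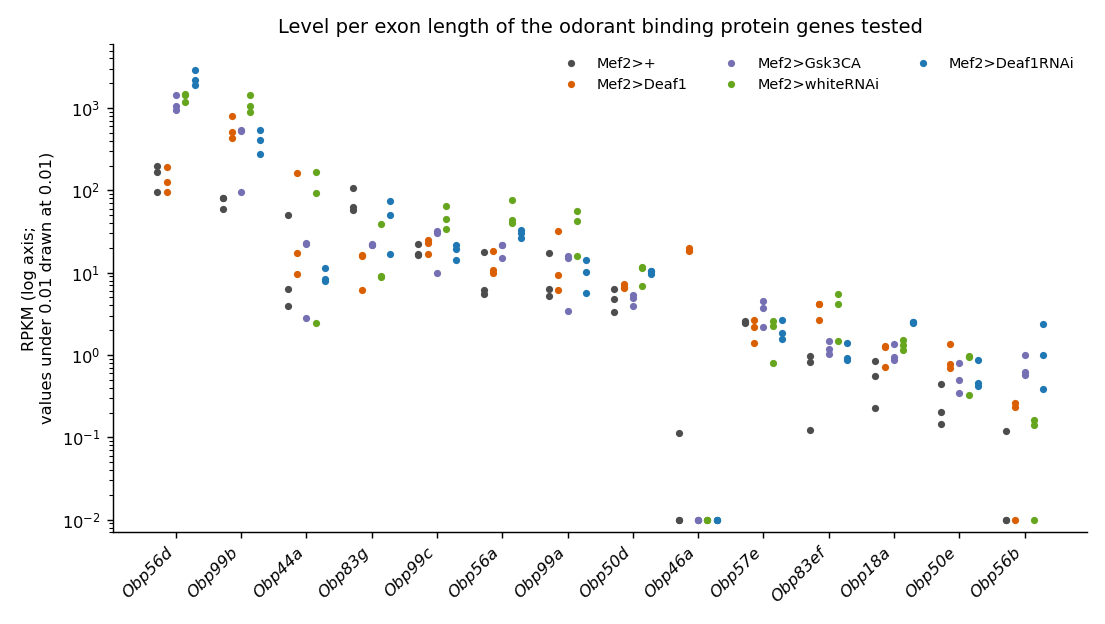
Level per exon length (RPKM, log axis) of the 14 odorant binding protein genes that passed the filter, each point 1 library and each colour 1 genotype, with values under 0.01 drawn at 0.01. Obp56d and Obp99b lie above the rest, with means over libraries of 1025 and 516, and Obp46a is off the floor in the 3 Mef2>Deaf1 libraries and barely in 1 Mef2>+ library.

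Obp56d, the most abundant member, separated the genotypes into a low and a high set. In adult flies it is known from chemosensory organs, and it is transcribed broadly compared with most of the family. It stood at 154, 179.9 and 87.5 CPM in the Mef2>+ libraries and at 178, 88.8 and 118 CPM in Mef2>Deaf1. It stood at 978, 876 and 1317 CPM in the Gsk3CA-labelled libraries, at 1314, 1347 and 1084 CPM in Mef2>whiteRNAi and at 1740.4, 2048 and 2659 CPM in Mef2>Deaf1RNAi. Every library of the last 3 genotypes lay above every library of Mef2>+ and Mef2>Deaf1.

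The control genotypes differed more for Obp56d than Deaf1 RNAi did from its control. Mef2>whiteRNAi was 8.89-fold above Mef2>+ (log2 fold change 3.15, SE 0.32, adjusted p = 3.3e-04), and the Gsk3CA-labelled libraries were 7.53-fold above Mef2>+ (2.91, SE 0.32, adjusted p = 5.9e-04). Mef2>Deaf1 did not differ detectably from Mef2>+ (log2 fold change −0.13, SE 0.30, adjusted p = 0.817). Mef2>Deaf1RNAi against Mef2>whiteRNAi gave a log2 fold change of 0.78 (SE 0.30, adjusted p = 0.125), with no overlap of libraries. A direct contrast of Mef2>Deaf1 with the Gsk3CA-labelled libraries, added after the values were seen, gave −3.04 (SE 0.32, adjusted p = 1.4e-04), in a comparison in which 30.2% of all genes tested were called.

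The band 56 neighbours of Obp56d did not all follow it. Obp56a stood at 3.38, 3.04 and 9.80 CPM in Mef2>+, 10.1, 5.38 and 5.84 in Mef2>Deaf1, 11.8, 11.8 and 8.32 in the Gsk3CA-labelled libraries, 41.8, 23.8 and 22.2 in Mef2>whiteRNAi and 18.1, 16.7 and 14.5 in Mef2>Deaf1RNAi. It was 5.39-fold higher in Mef2>whiteRNAi than in Mef2>+ (log2 fold change 2.43, SE 0.43, adjusted p = 0.004). The Mef2>whiteRNAi libraries were the highest of all 15 for Obp56a, whereas for Obp56d the Mef2>Deaf1RNAi libraries were. Obp56b stayed low, with means of 0.0225 CPM in Mef2>+, 0.0937 in Mef2>Deaf1, 0.0582 in Mef2>whiteRNAi, 0.413 in the Gsk3CA-labelled libraries and 0.719 ± 0.590 in Mef2>Deaf1RNAi. No comparison of the study called Obp56b. Obp56c, Obp56e, Obp56f, Obp56g and Obp56h did not pass the filter, and their highest library values were 0.0323, 0.221, 0.141, 0.409 and 0.315 CPM.

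Obp56i also missed the filter, but reached 1.40, 1.81 and 0.329 CPM (48, 56 and 7 counts) in the Gsk3CA-labelled libraries. Elsewhere it had counts in 1 Mef2>+ library (0.388 CPM) and 1 Mef2>whiteRNAi library (0.123 CPM). A list of 9 testis genes, of which 8 were tested, moved with it in part. They summed to 179, 196 and 39.2 CPM in the same Gsk3CA-labelled libraries and to 31.0 CPM in the Mef2>+ library with Obp56i counts. In the other 11 libraries the list summed to 3.12 to 15.2 CPM. Among these, the Mef2>whiteRNAi library with Obp56i counts had a sum of 5.11 CPM. The library at 15.2 CPM, replicate 3 of Mef2>Deaf1, had no Obp56i count. The part of testis RNA in the Obp56i counts was not tested.

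**Figure D2:**
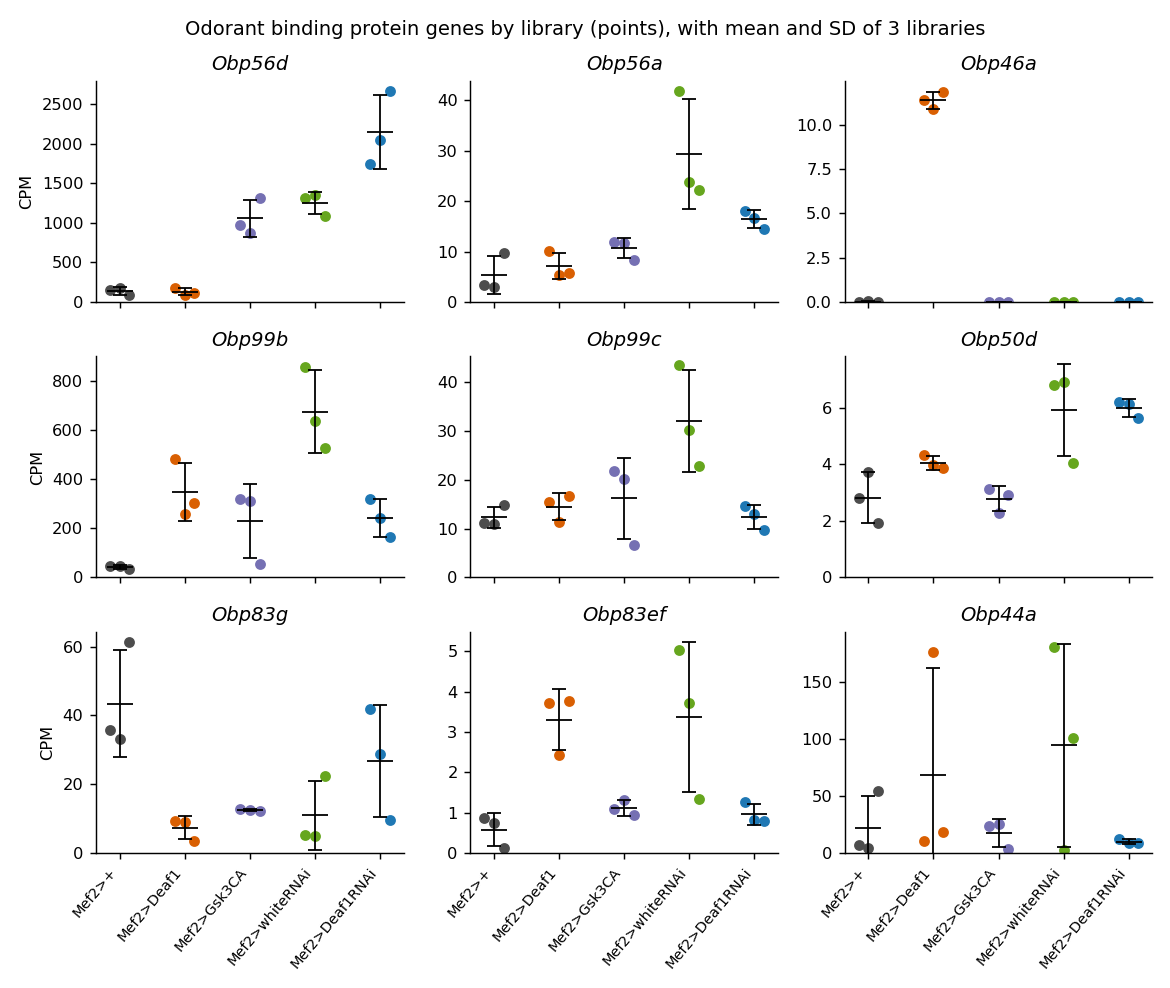
CPM (linear axes from 0) of 9 odorant binding protein genes in each of the 15 libraries, grouped by genotype, with a horizontal mark at the mean and bars of 1 SD of 3 libraries. Obp56d is at 179.9 CPM or less in Mef2>+ and Mef2>Deaf1 and at 876 CPM or more in the other genotypes, Obp46a is above 1 CPM only in Mef2>Deaf1, and Obp44a spreads widely within genotypes.

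Obp46a was found almost only in Mef2>Deaf1. It belongs to the members with additional cysteines, often called Plus-C, and its ligand is not known. Its counts were 258, 268 and 239 in the 3 Mef2>Deaf1 libraries, or 11.4, 10.8 and 11.8 CPM. There was 1 count in 1 Mef2>+ library and none in the other 11 libraries of the other genotypes. The gene passed the filter only through Mef2>Deaf1.

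Against Mef2>+, Obp46a was at least 65.3-fold higher in Mef2>Deaf1, taking the limit of 3 counts per library as the level of the control. The adjusted p was 0.0019, for a gene that entered the test only through its high group. On the same limit it was at least 105-fold higher than in the Gsk3CA-labelled libraries and at least 96.3-fold higher than in Mef2>whiteRNAi. The spread over the 3 Mef2>Deaf1 libraries was 0.496 CPM around a mean of 11.4 CPM. The genes on either side did not rise with it. CG12909, 29 bases away in the current annotation, had a log2 fold change of −0.33 (adjusted p = 0.265) in Mef2>Deaf1 against Mef2>+, JhI-1 had −0.22 (adjusted p = 0.212), and Ndg, the gene for the basement membrane protein nidogen, had −0.94 (adjusted p = 0.047). Mef2>Deaf1RNAi and its control held no Obp46a count, so loss of Deaf1 could not be read for it at this depth. The study names a single Deaf1 transgene stock. Deaf1 expression, genotype background, transgene insertion and preparation therefore cannot be told apart as sources of the Obp46a level, and none was tested.

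**Figure D3:**
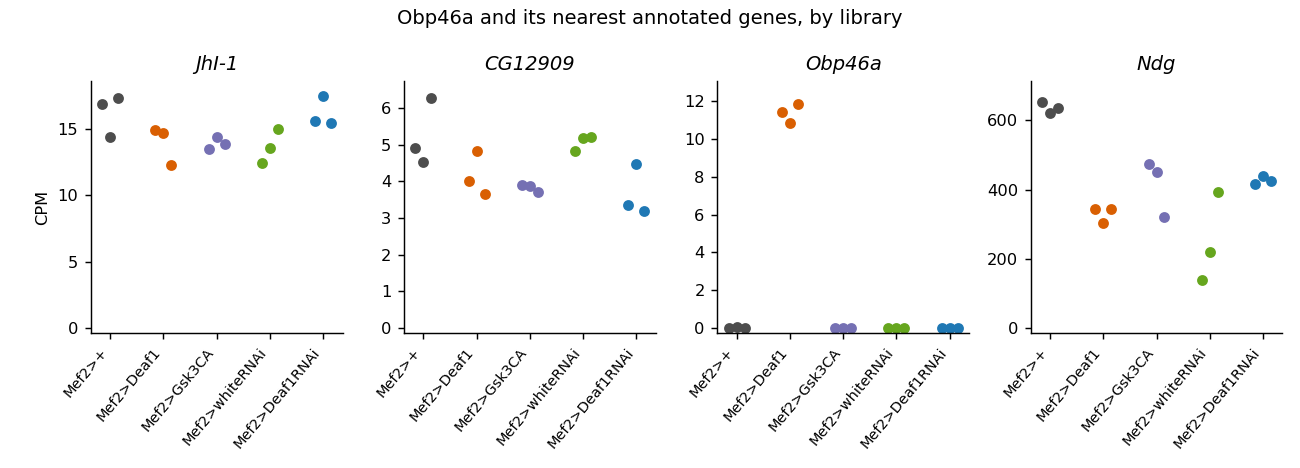
CPM (linear axes) of Obp46a and of its nearest annotated genes JhI-1, CG12909 and Ndg in each library, grouped by genotype. The 3 Mef2>Deaf1 libraries stand at 10.8 to 11.8 CPM for Obp46a and at no raised level for the other 3 genes.

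Obp99b was the second most abundant member and was lowest in Mef2>+. It was first described in adult flies under the name tsx as a gene more highly expressed in the male fat body. The Mef2>+ libraries held 47.4, 48.4 and 34.8 CPM and the Mef2>Deaf1 libraries 479.6, 258 and 302. The Gsk3CA-labelled libraries held 318, 313 and 56.4 CPM, Mef2>whiteRNAi 857, 637 and 525, and Mef2>Deaf1RNAi 319, 242 and 163. No library of another genotype was as low as any Mef2>+ library.

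Against Mef2>+, Obp99b was 7.97-fold higher in Mef2>Deaf1 (log2 fold change 2.99, SE 0.54, adjusted p = 0.0043), 5.27-fold higher in the Gsk3CA-labelled libraries (2.40, SE 0.53, adjusted p = 0.015) and 15.5-fold higher in Mef2>whiteRNAi (3.95, SE 0.56, adjusted p = 0.0016). Mef2>Deaf1RNAi was lower than Mef2>whiteRNAi in every library, with a log2 fold change of −1.48 (SE 0.51, adjusted p = 0.095). Against Mef2>+ in place of Mef2>whiteRNAi, Mef2>Deaf1RNAi was higher, at 2.47 (SE 0.53, adjusted p = 0.016), so its direction turned with the control. The call for the Gsk3CA-labelled libraries was lost without replicate 1 of Mef2>+ (adjusted p = 0.053) and without replicate 1 (0.056) or replicate 2 (0.058) of its own group.

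Lsp1alpha moved with Obp99b, and other fat body markers did so in part or not at all. Lsp1alpha, a larval storage protein gene made by fat body, stood at 9.003, 7.76 and 47.2 CPM in Mef2>+, 555, 129 and 252 in Mef2>Deaf1, 227, 231 and 12.8 in the Gsk3CA-labelled libraries, 487, 436 and 483 in Mef2>whiteRNAi and 293, 199 and 71.5 in Mef2>Deaf1RNAi. The Gsk3CA-labelled library that was low for Obp99b was thus low for Lsp1alpha too, and Mef2>whiteRNAi was high for both. All 6 fat body markers were tested. They summed to 2516 to 6875 CPM in Mef2>+, 3413 to 6745 in Mef2>Deaf1, 1003 to 6308 in the Gsk3CA-labelled libraries, 7100 to 10583 in Mef2>whiteRNAi and 2784 to 4850 in Mef2>Deaf1RNAi. Mef2>Deaf1 had 1 of the 6 called higher than Mef2>+ and Mef2>whiteRNAi had 2. Of all genes tested, 12.4% and 16.5% were called in these comparisons, in either direction. Lsp1beta and Lsp2, also storage protein genes, had log2 fold changes of −0.32 and −0.08 in Mef2>Deaf1 against Mef2>+ (adjusted p = 0.854 and 0.947). The Mef2>+ library lowest in Obp99b (34.8 CPM) had the highest Lsp1beta of all 15 (2259 CPM) and a list sum of 6875 CPM. The X-chromosome dosage compensation RNAs roX1 and roX2, which are made in males, summed to 108 to 417 CPM over the libraries and edgeR called neither in any comparison of the study (0 at an unadjusted p under 0.05). The part of fat body RNA or of sex in the Obp99b difference was not tested.

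**Figure D4:**
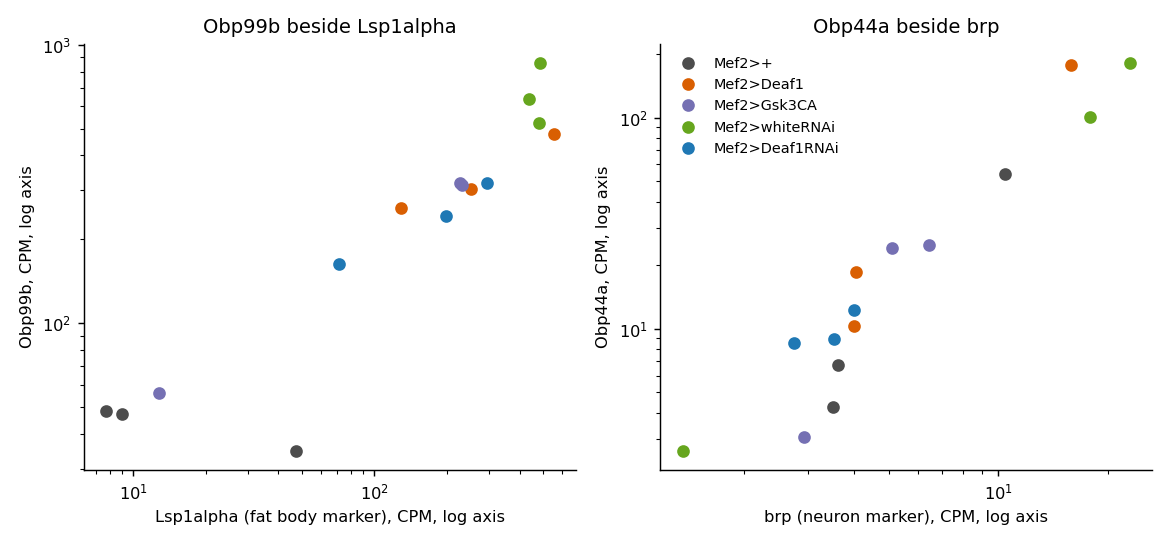
CPM of Obp99b against the fat body marker Lsp1alpha and of Obp44a against the neuron marker brp, each point 1 library, colours by genotype, all axes logarithmic. The libraries with the least Lsp1alpha (7.76 to 47.2 CPM) have Obp99b at 34.8 to 56.4 CPM, and the 4 libraries with brp at 10.5 CPM or more have Obp44a at 54.1 CPM or more.

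Against Mef2>+, the other band 99 genes had smaller fold changes than Obp99b. Obp99c stood at 11.3, 10.9 and 14.8 CPM in Mef2>+, 15.4, 11.4 and 16.7 in Mef2>Deaf1, 21.8, 20.1 and 6.68 in the Gsk3CA-labelled libraries, 43.4, 30.1 and 22.7 in Mef2>whiteRNAi and 14.5, 13.0 and 9.64 in Mef2>Deaf1RNAi. The 3 Mef2>whiteRNAi libraries were the highest of all. Obp99c was the only member called in Mef2>Deaf1RNAi against Mef2>whiteRNAi, a comparison that called 8.81% of all genes tested. There it was 2.59-fold lower (log2 fold change −1.37, SE 0.38, adjusted p = 0.042), and it was higher in Mef2>whiteRNAi than in Mef2>+ (1.38, SE 0.38, adjusted p = 0.028). Mef2>Deaf1RNAi and Mef2>+ did not differ detectably (log2 fold change 0.01, SE 0.38, adjusted p = 0.993). The call against Mef2>whiteRNAi was lost under limma voom (adjusted p = 0.065) and when any 1 library other than Mef2>whiteRNAi replicate 3 was left out (0.074 to 0.170).

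Obp99a varied within genotypes, at 3.84, 3.17 and 10.5 CPM in Mef2>+, 5.79, 19.7 and 3.71 in Mef2>Deaf1, 9.65, 9.17 and 2.07 in the Gsk3CA-labelled libraries, 34.1, 9.69 and 26.2 in Mef2>whiteRNAi and 8.67, 6.30 and 3.47 in Mef2>Deaf1RNAi. No comparison called it, with log2 fold changes of −1.92 (adjusted p = 0.140) for Mef2>Deaf1RNAi against Mef2>whiteRNAi and 1.99 (adjusted p = 0.097) for Mef2>whiteRNAi against Mef2>+. Obp99d had 1 count in all 15 libraries.

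Obp44a had a wide spread within most genotypes. It is placed with the Minus-C members, which lack a pair of the conserved cysteines, and is known from glia of the nervous system. It stood at 6.75, 4.25 and 54.1 CPM in Mef2>+, 10.3, 177 and 18.7 in Mef2>Deaf1, 24.0, 25.0 and 3.06 in the Gsk3CA-labelled libraries, 181, 2.65 and 101 in Mef2>whiteRNAi and 12.2, 8.95 and 8.56 in Mef2>Deaf1RNAi. Genotypes overlapped in every comparison of the study, and none called the gene (adjusted p = 0.197 to 0.904).

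Nervous system markers moved with Obp44a from library to library. The neuronal active zone gene brp stood at 3.63, 3.51 and 10.5 CPM in Mef2>+, 4.02, 15.9 and 4.06 in Mef2>Deaf1, 5.12, 6.46 and 2.92 in the Gsk3CA-labelled libraries, 23.1, 1.35 and 17.9 in Mef2>whiteRNAi and 4.005, 3.53 and 2.74 in Mef2>Deaf1RNAi. The 4 libraries highest in Obp44a were those highest in brp, and 1 Mef2>whiteRNAi library was lowest in both. In those 4 libraries the glial gene repo stood at 4.60 to 5.42 CPM, and at 1.29 to 2.78 CPM in the other 11. The 5 markers of neurons and glia, all tested, summed to 61.3 to 130 CPM over the libraries, and the same 4 were among the 5 highest. They were also the 4 highest for Obp99a. The part of nervous tissue in these levels was not tested. An exon of Obp44a overlaps Pabp2 on the opposite strand, which stood at means of 58.8 to 68.2 CPM per genotype, and whether strand was used in counting is not given.

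The band 83 genes Obp83g and Obp83ef, 637 bases apart in the current annotation, moved in opposite directions in Mef2>Deaf1. Obp83ef is annotated as a double-length member that joins a pair of binding domains. Obp83g stood at 35.7, 33.1 and 61.3 CPM in Mef2>+, 9.41, 9.11 and 3.52 in Mef2>Deaf1, 12.8, 12.3 and 12.3 in the Gsk3CA-labelled libraries, 5.25, 5.04 and 22.4 in Mef2>whiteRNAi and 41.8, 28.7 and 9.54 in Mef2>Deaf1RNAi. Every Mef2>+ library lay above every Mef2>Deaf1 and Mef2>whiteRNAi library and above every Gsk3CA-labelled library. It was 5.89-fold lower in Mef2>Deaf1 than in Mef2>+ (log2 fold change −2.56, SE 0.65, adjusted p = 0.024), a call lost with the replicate block (adjusted p = 0.057), without replicate 3 of Mef2>+ (0.077) and without any 1 Mef2>Deaf1 library (0.060 to 0.095). The Gsk3CA-labelled libraries (−1.80, SE 0.63, adjusted p = 0.073) and Mef2>whiteRNAi (3.99-fold lower, SE 0.63 on the log2 scale, adjusted p = 0.0505) were not called.

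Obp83ef stood at 0.870, 0.742 and 0.111 CPM in Mef2>+, 3.71, 2.43 and 3.76 in Mef2>Deaf1, 1.08, 1.32 and 0.940 in the Gsk3CA-labelled libraries, 5.02, 3.72 and 1.34 in Mef2>whiteRNAi and 1.26, 0.819 and 0.783 in Mef2>Deaf1RNAi. It was 5.71-fold higher in Mef2>Deaf1 than in Mef2>+ (log2 fold change 2.51, SE 0.62, adjusted p = 0.021) and 5.82-fold higher in Mef2>whiteRNAi (2.54, SE 0.62, adjusted p = 0.017). Both calls were lost under limma voom (adjusted p = 0.069 and 0.063). The call for Mef2>Deaf1 was also lost without its replicate 1 (0.058) or replicate 3 (0.061), and that for Mef2>whiteRNAi without its replicate 1 (0.073). Mef2>Deaf1RNAi was lower than Mef2>whiteRNAi in all libraries, at −1.81 (SE 0.60, adjusted p = 0.083). Obp83ef exons overlap those of Obp83cd on the opposite strand, and Obp83cd stood at means of 0.191 to 0.455 CPM per genotype.

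Obp50d was low, with a 3.55-fold range over the libraries. It stood at 2.81, 3.71 and 1.94 CPM in Mef2>+, 4.33, 3.97 and 3.86 in Mef2>Deaf1, 3.13, 2.29 and 2.92 in the Gsk3CA-labelled libraries, 6.79, 6.89 and 4.03 in Mef2>whiteRNAi and 6.20, 6.11 and 5.63 in Mef2>Deaf1RNAi. Both RNAi genotypes and Mef2>Deaf1 lay above Mef2>+ in every library, the last without a call (log2 fold change 0.53, SE 0.25, adjusted p = 0.211). Mef2>whiteRNAi was 2.10-fold above Mef2>+ (log2 fold change 1.07, SE 0.25, adjusted p = 0.014), a call lost without replicate 1 of Mef2>+ (0.055) and without replicate 1 (0.065) or replicate 2 (0.061) of Mef2>whiteRNAi. Deaf1 RNAi against its control left it level (0.02, SE 0.25).

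Obp18a, Obp50e and Obp57e were near 1 CPM or below. Means per genotype ran from 0.395 to 1.83 CPM for Obp18a, from 0.201 to 0.712 CPM for Obp50e and from 0.780 to 1.42 CPM for Obp57e, a gene known with Obp57d from taste responses to fatty acids that guide egg laying in adult flies. No comparison of the study called any of them. Obp18a was highest in Mef2>Deaf1RNAi, at 1.81, 1.83 and 1.86 CPM, above every other library, with a log2 fold change of 0.89 (SE 0.41, adjusted p = 0.202) against Mef2>whiteRNAi. Against Mef2>+ its log2 fold change was 2.19 (SE 0.44, adjusted p = 0.011).

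Counted over the 14 genes that passed the filter, each comparison called a few. Obp46a passed only through Mef2>Deaf1, and Obp56b exceeded 3 counts only in Mef2>Deaf1RNAi and the Gsk3CA-labelled libraries. Both are kept in the counts, medians and overlaps below, which are thus in part set by the filter. In Mef2>Deaf1RNAi against Mef2>whiteRNAi 1 of the 14 was called, lower, where 8.81% of all genes tested were called and 3.33% were lower. An unadjusted p under 0.05 was reached by 7, beside 24.7% of all genes. In Mef2>Deaf1 against Mef2>+ 4 were called, Obp46a, Obp83ef and Obp99b higher and Obp83g lower, where the background was 12.4%, and 6 had an unadjusted p under 0.05, beside 26.1%. With the replicate number as a block, 3 were called, all higher. In the Gsk3CA-labelled libraries against Mef2>+ 2 were called, Obp56d and Obp99b, both higher, beside 14.1% of all genes called and 5.19% higher, and 6 had an unadjusted p under 0.05, beside 34.8%. The comparison of the control genotypes, Mef2>whiteRNAi against Mef2>+, called 6, Obp50d, Obp56a, Obp56d, Obp83ef, Obp99b and Obp99c, all higher, beside 16.5% of all genes called and 6.30% higher, and 10 had an unadjusted p under 0.05, beside 33.4%.

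The median log2 fold change of the 14 genes was −0.18 in Mef2>Deaf1RNAi against Mef2>whiteRNAi, 0.87 in Mef2>Deaf1, 0.71 in the Gsk3CA-labelled libraries and 1.44 in Mef2>whiteRNAi, the last 3 against Mef2>+. Over all genes tested the medians were −0.05, −0.02, −0.04 and −0.02. In Mef2>Deaf1RNAi against Mef2>whiteRNAi, Obp46a had no count and entered at 0.00, and −0.18 lies between this value and Obp50e at −0.36. In the Gsk3CA-labelled libraries and Mef2>whiteRNAi, Obp46a entered at −2.18, which rests on 1 count in Mef2>+. These medians are thus no measure of a shift of the family. The skeletal muscle markers moved in the same comparisons, with median log2 fold changes of 1.07, −1.42, −0.60 and −1.26. Of the 11 markers, 7 were called higher in Mef2>Deaf1RNAi than in Mef2>whiteRNAi, and against Mef2>+ 10 were lower in Mef2>Deaf1 and 11 in Mef2>whiteRNAi, while the Gsk3CA-labelled libraries had 0 called by edgeR (3 at an unadjusted p under 0.05). Shares of all genes called in these comparisons were 8.81%, 12.4%, 16.5% and 14.1%, in either direction. The part of a lower share of muscle RNA in the Obp fold changes was not tested. Libraries did not overlap for 8, 6, 6 and 8 of the 14, against 30.9%, 33.2%, 36.5% and 33.3% of all genes tested. The comparisons of Deaf1 RNAi and of Deaf1 overexpression share no library. Of 13 genes with counts in both, 10 had fold changes of opposite sign, or 76.9%, beside 57.6% of all genes with counts in both. Signs were counted whatever the size, such as 0.08 and −0.27 for Obp57e, and only Obp99c was called for Deaf1 RNAi. With Mef2>+ as the control of Mef2>Deaf1RNAi, only Obp44a and Obp56d of the 10 kept their sign for Deaf1 RNAi.

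The calls differed with the control. With Mef2>+ as the control, Mef2>Deaf1RNAi had 6 of the 14 called higher (Obp18a, Obp50d, Obp56a, Obp56b, Obp56d and Obp99b; 3.41% of all genes were called higher), where its own control gave 1, lower. Of these, Obp56b had at most 1 count in a Mef2>+ library and passed the filter only through groups where it was high. With Mef2>whiteRNAi as the control, Mef2>Deaf1 had 1 called higher, Obp46a, and 2 lower, Obp56a and Obp56d (background 6.56%), and the Gsk3CA-labelled libraries had 3 called, all lower, Obp50d, Obp56a and Obp99b (13.0% of all genes were lower). The Obp46a call is again that of a gene tested only through its high group. Genotype background, transgene insertion and preparation cannot be told apart as sources of the difference between the control genotypes.

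**Figure D5:**
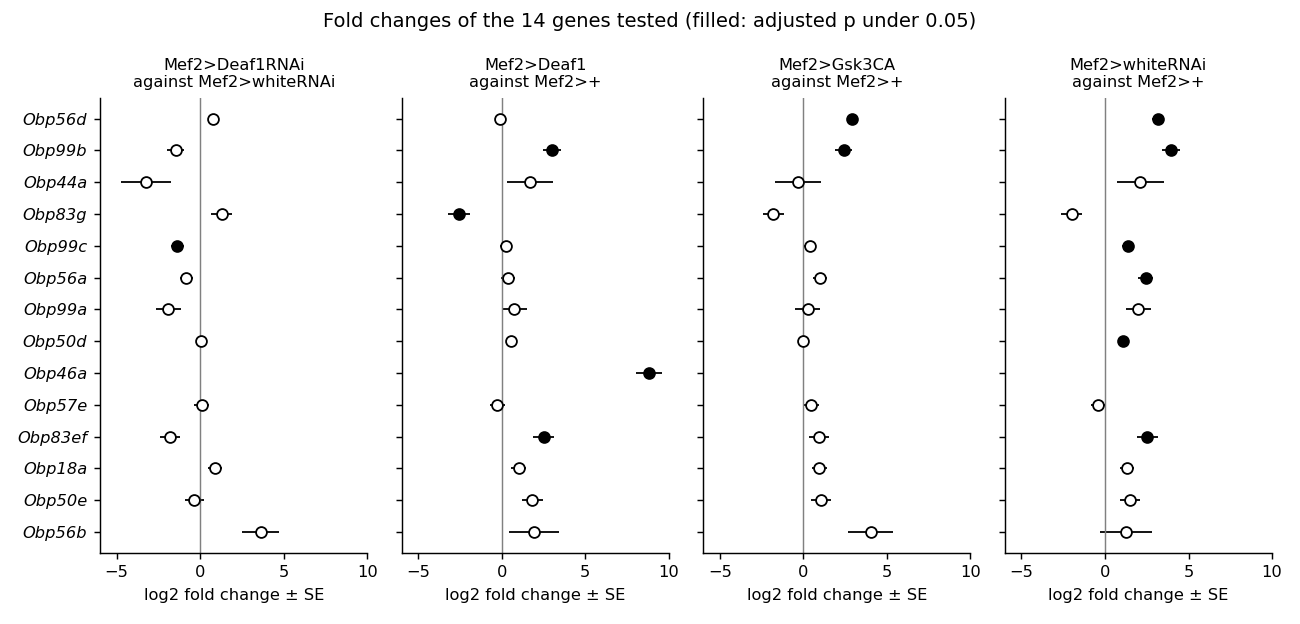
Log2 fold changes with standard errors of the 14 genes in the comparisons of the study and between the control genotypes, ordered by mean level per exon length, with filled points at adjusted p under 0.05. Obp46a is drawn only for Mef2>Deaf1, the fitted value of 8.83 being no bound, and filled points lie mostly right of 0 against Mef2>+, with Obp83g at −2.56 in Mef2>Deaf1 as the exception.

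Chemosensory genes outside the family were mostly absent from the fillets. Of 61 odorant receptor genes 4 passed the filter, as did 6 of 63 gustatory receptors, 8 of 62 ionotropic receptors and none of 20 genes of the CheA and CheB families. By edgeR no odorant receptor was called in these comparisons, and 1 had an unadjusted p under 0.05, in Mef2>whiteRNAi against Mef2>+. Of the others, 1 gustatory receptor was lower in Mef2>Deaf1, and 1 ionotropic receptor was higher than in Mef2>+ in each of Mef2>Deaf1, the Gsk3CA-labelled libraries and Mef2>whiteRNAi. In these 3 comparisons 12.4%, 14.1% and 16.5% of all genes tested were called, in either direction. Of the 7 family members under other symbols 2 passed, with summed levels of 1.39 to 3.27 CPM for the list. By edgeR neither was called, and 0 had an unadjusted p under 0.05. Of lush, a5, Snmp1, Snmp2 and to, 3 passed. Snmp1, a membrane protein of pheromone-sensing neurons, stood at 6.39 CPM in Mef2>Deaf1 against 16.2 CPM in Mef2>+ (log2 fold change −1.34, SE 0.38, adjusted p = 0.038).

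Phk-3, one of the OS-D type chemosensory proteins, a separate family of small secreted carrier proteins, showed a difference between the control genotypes as Obp56d did. Its mean was 114 CPM in Mef2>+, 131 in Mef2>Deaf1, 123 in the Gsk3CA-labelled libraries, 233 in Mef2>whiteRNAi and 237 in Mef2>Deaf1RNAi. Mef2>whiteRNAi was higher than Mef2>+ (log2 fold change 1.03, SE 0.21, adjusted p = 0.0069), and Deaf1 RNAi did not differ detectably from its control (0.02, SE 0.21). The list of chemosensory organ markers (6 genes, 4 tested) summed to 7.29 to 8.77 CPM in Mef2>Deaf1 and to 10.05 to 28.4 CPM in the other genotypes. Snmp1 made up most of these sums, at 5.95 to 6.85 CPM in Mef2>Deaf1. The markers Ir25a and lush were not lower there. Their means were 1.10 and 0.419 CPM in Mef2>Deaf1, inside 0.843 to 1.52 and 0.291 to 0.477 CPM in the other genotypes. Obp56d had means of 140 CPM in Mef2>+ and 128 CPM in Mef2>Deaf1. The part of chemosensory organ RNA in the Obp56d levels was not tested.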

How the data were processed

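RNA was isolated from larval fillets, and libraries were made with a stranded mRNA kit and sequenced as paired reads. Per the labels and the methods, the authors aligned reads with STAR to the BDGP5 build and deposited unnormalized counts per gene symbol from HTSeq. The strand and overlap settings, and which libraries shared a lane, are not given in the sources used here. Summary lines (no feature, 3.36 to 6.75% of entries; ambiguous, 1.74 to 3.07%) were left out.

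The counts of all 15 libraries were fitted in edgeR 4.0.16 (R 4.3.3) with TMM factors, filterByExpr by genotype and the quasi-likelihood test, with 1 mean per genotype and Benjamini-Hochberg adjustment over 10930 genes. The fit was tested on simulated data. DESeq2 1.42.0, limma 3.58.1 (voom, the method the study names), other filters and size factors, the 6 libraries compared alone, a replicate block, an exchanged control and leaving out each library were alternatives. Same-numbered libraries of Mef2>Deaf1 and Mef2>+ deviated together (r = 0.30, 0.24 and 0.48 across genes), so blocked calls are given for that comparison, where the number alone, not a stated batch, is the source of the pairing. Levels are CPM with TMM factors. Exon lengths, distances and gene names are from the BDGP6 annotation, to which 15369 of 15682 symbols matched, and no coordinates are printed because the build differs. Per-library values were given for members called in at least 1 comparison of the study or the control comparison and for the 6 with the highest mean CPM. Obp99a and Obp18a were added after their values were seen. The members, lists and markers were chosen with earlier results of these data known. Limits of 3 counts cover counting error only.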

Additional observations from a re-analysis of the deposited data

How the results depend on the processing

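The counts of called members moved with the setting. Shares of all genes called under each setting are not set beside them here, so a move need not be particular to the members. Mef2>Deaf1RNAi against Mef2>whiteRNAi had 1 call, 5 under DESeq2, 0 under limma voom, 0 with the replicate block, 2 with the 6 libraries alone, 6 with the exchanged control, and 0 to 3 leaving out 1 library. Mef2>Deaf1 against Mef2>+ had 4, and 2 to 4 leaving out 1 library. The Gsk3CA-labelled libraries against Mef2>+ had 2, 4 under DESeq2, 1 with the 6 libraries alone, and 1 to 4 leaving out 1 library. Mef2>whiteRNAi against Mef2>+ had 6, 3 with the 6 libraries alone, and 3 to 7 leaving out 1 library. The other settings stayed within 1.5 times, and 12 to 13 genes reached 1 CPM leaving out 1 library. Obp56d and Obp99b kept their calls against Mef2>+, where they had one, except where given here or in the report.

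With the exchanged control, some log2 fold changes with an unadjusted p under 0.05 in the main fit took the other sign. They were Obp83ef 0.73, Obp99a 0.07, Obp99b 2.47 and Obp99c 0.01 for Mef2>Deaf1RNAi, and Obp18a −0.30, Obp83ef −0.03 and Obp99b −0.96 for Mef2>Deaf1. For the Gsk3CA-labelled libraries they were Obp18a −0.34, Obp56a −1.46, Obp56d −0.24, Obp83g 0.20 and Obp99b −1.55. Only Obp99b in Mef2>Deaf1RNAi and Obp56a and Obp99b in the Gsk3CA-labelled libraries were called there by edgeR. The others did not differ detectably from the exchanged control. The cause was not tested. With the 6 libraries alone, Obp99b in the Gsk3CA-labelled libraries had an adjusted p of 0.134. The replicate block changed no call beyond those of Obp99c and Obp83g. For the comparisons other than Mef2>Deaf1 against Mef2>+, libraries share only a number (mean r −0.10 for Deaf1 RNAi, −0.66 for Gsk3CA and 0.12 for Mef2>whiteRNAi). Genes under about 3 counts per library could not be compared at this depth.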
